A study of Drosophila melanogaster with 22 samples.

Results

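GTPases, helicases and nucleolar factors of ribosome assembly, 9 genes in all, were followed in Drosophila S2 cells, an embryonic line with blood cell character, after dsRNA against components of the RNA exosome. The genes were Ns1, Ns2, Ns3, Non1, Nmd3, pit, Nnp-1, Surf6 and Tif-IA, and a probe set was taken where the platform annotation gave it one of these symbols, current or older. The annotation held 1 probe set for each of 8 genes. Nmd3 was not analysed here. All 8 probe sets lay among the 9385 tested of 18769 that are not Affymetrix controls, and none of their values was at the floor set on low signal. Of the 8, 4 encode GTPases (Ns1, Ns2, Ns3 and Non1) and 1 a DEAD-box helicase (pit), while Nnp-1, Surf6 and Tif-IA are neither.

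The series used 22 one-colour Affymetrix arrays to look for mRNAs on which the RNA exosome acts. This complex of exonucleases and binding subunits works from the 3' end of its RNA. Cells received dsRNA at 30 µg/ml on days 0, 1 and 3 and were lysed on day 5, and 6 µg of total RNA was labelled per array. All groups were the same cell line grown in the same medium, so they differ only in the sequence of the dsRNA as far as the labels say. The groups were cells given dsRNA against the cap subunits Csl4 (2 arrays), Rrp4 (4) and Rrp40 (2), the ring subunits Mtr3, Rrp46 and Ski6 (2 each), the exonucleases Dis3 (2) and Rrp6 (2), and the Rrp6 partner Rrp47 (2), and cells given dsRNA against GFP, a gene S2 cells lack (2). The 6 cap and ring groups are called the core below. Depletion arrays carry the word biological in their titles and the GFP arrays do not, and no label names separate cultures, so p-values measure the spread between these arrays.

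Ribosomes are built in the nucleolus, where RNA polymerase I makes a long precursor RNA that is cut, folded and bound by ribosomal proteins. Assembly factors join and leave in order, and GTPases and helicases drive several of the steps at which RNA is remodelled or a factor is released. The exosome takes part in the same process in yeast and human cells, where it trims precursor ends and degrades the spacers that are cut away.

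The targeted genes did not all fall in their own arrays. Signal for the target was lower in the Dis3 arrays (log2 difference from GFP -1.17, adjusted p = 0.014) and the Rrp6 arrays (-0.91, adjusted p = 0.046). It was higher in 4 groups, Csl4 (2.68), Ski6 (2.40), Rrp40 (1.83) and Rrp47 (1.71), with adjusted p from 1.3e-06 to 4.8e-05. In 3 groups, Rrp4 (-0.60), Mtr3 (0.48) and Rrp46 (0.50), it was not called. Each group is therefore called by its label. Of 8 measured blood cell markers 7 lay above the signal filter. Col4a1, Hml, srp and Glt lay at percentiles 99.2, 97.0, 95.8 and 87.5 of all probe sets. The others were eater at 68.7, Pxn at 61.2, He at 54.0 and NimC1, below the filter, at 44.8. Also above the filter were 0 of 2 fat body markers, 1 of 2 muscle, and 2 of 3 each of neuron, germline and gut markers. The highest of these was the neuronal marker elav at 69.5. The probe sets that control for 18S ribosomal RNA differed between groups, with a mean signal over the array median of 8.79 (log2) in Dis3, 8.39 in Ski6, 8.38 in Rrp6 and 3.84 in GFP. The arrays of Rrp6, Dis3, Csl4 and GFP also differed most within their groups, where the log2 signals of replicate arrays lay a median of 0.435, 0.413, 0.343 and 0.305 apart, against 0.123 to 0.230 in the other groups.

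All values below are log2 signal after quantile normalization, which gives every array the same distribution, and differences are log2 with the standard error from limma. A gene was called at an adjusted p under 0.05 (Benjamini-Hochberg over all 9385 probe sets of a comparison, two-sided). The 8 genes were well above the filter: the mean signal lay at percentile 99.3 of all probe sets for Non1, 94.1 for Tif-IA, 92.4 for Nnp-1, 90.3 for Ns1, 88.4 for pit, 79.3 for Ns3, 78.4 for Surf6 and 65.4 for Ns2. Probe sets differ in how well they bind, so these percentiles place each probe set on the array and do not rank the genes' mRNA. The probe sets of Ns1 and pit carry the suffix that Affymetrix gives to probes shared by more than 1 transcript, and the annotation used gives each a single gene. Below, arrays of groups are at times said to lie apart, above or below others. How many of all tested probe sets do so is not given, so this only describes each gene. Neighbouring groups could lie apart by little, as for Non1 in Rrp6 and Rrp46, whose means differed by 0.04.

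**Figure D1:**
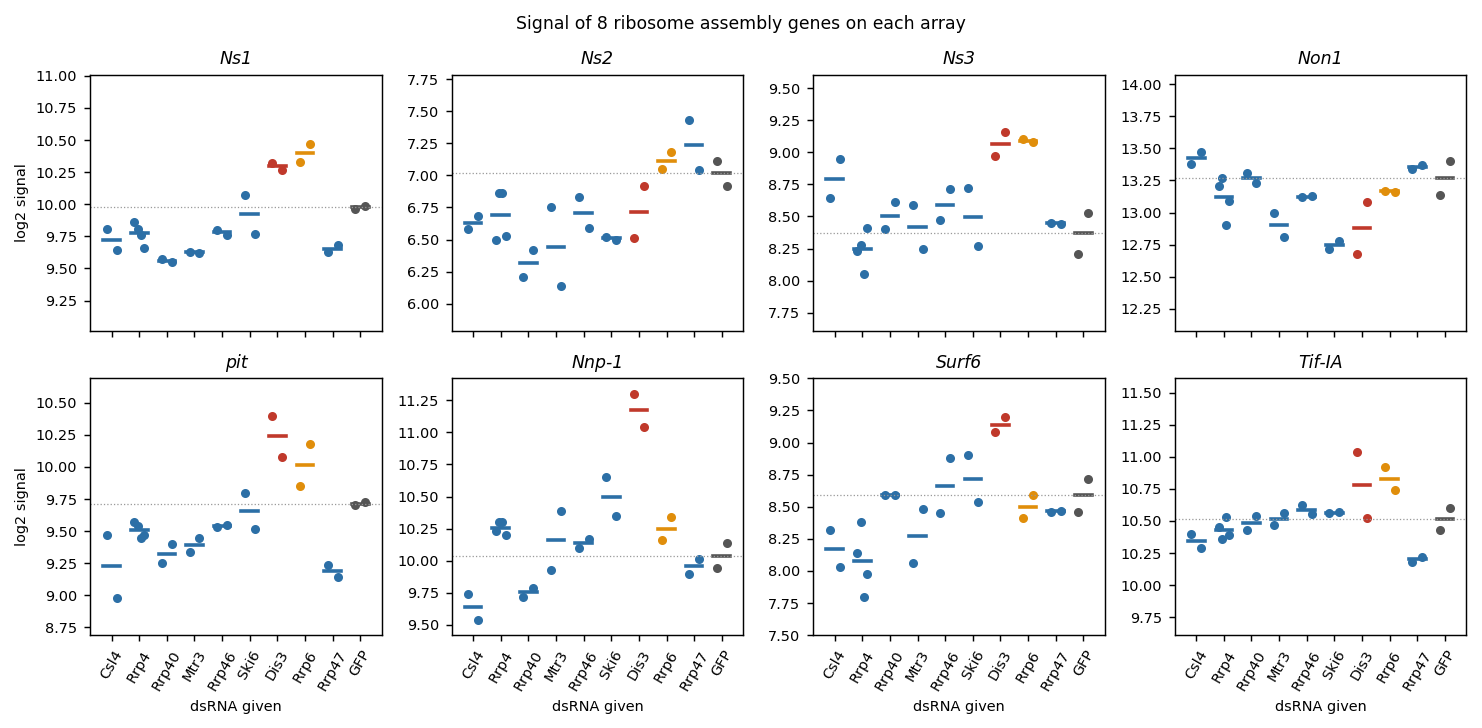
Log2 signal (vertical axis, a span of equal size in each panel) of 8 ribosome assembly genes on each of 22 arrays, by dsRNA given (horizontal axis), with GFP at the right of each panel. Points are arrays, short bars group means, and the dotted line the GFP mean; red marks Dis3, orange Rrp6, grey GFP and blue the other groups. Both Dis3 points of Nnp-1 lie above all 20 other arrays.

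Against GFP, 12 of the 72 comparisons of a gene with a depletion were called, 6 higher and 6 lower, beside 19.4% of the 84465 such comparisons over all tested probe sets. The calls were not spread evenly. In the Dis3 arrays 4 of 8 genes were called, with Nnp-1, Ns3 and pit higher and Non1 lower, while of all tested probe sets 21.2% were called, 11.0% higher and 10.2% lower. In the Rrp6 arrays Ns1 and Ns3 were called, both higher, which is 2 of 8 genes, beside 8.82% of all tested (4.27% higher and 4.55% lower). Rrp40 had 2 of 8 called, Ns1 and Ns2, both lower (20.3% of all tested, 9.44% lower). Ski6 had 2 of 8, Nnp-1 higher and Non1 lower (22.7% of all tested). Rrp4 had 1 of 8, Surf6, lower (23.8% of all tested, 11.3% lower), and Rrp47 had 1 of 8, pit, lower (20.5%, 10.2% lower). By limma 0 of 8 genes were called in Csl4 (18.6% of all tested), Mtr3 (18.9%) and Rrp46 (19.8%), where 3, 3 and 0 genes had an unadjusted p under 0.05. The share of all tested probe sets at that unadjusted threshold is not given here, so these 3 counts cannot be set against it. In this bulk RNA, fewer cells of a kind and less RNA per cell cannot be told apart. The fit gives all groups 1 estimate of spread per probe set, though Rrp6, Dis3, Csl4 and GFP arrays differed more within groups than the others. The limma p-values for Dis3, Rrp6 and Csl4 against GFP can therefore be too small. The same holds below for the core against Dis3 and for Dis3 against Rrp6. With arrays weighted by quality, Ns3 (adjusted p = 0.21), pit (0.19) and Non1 (0.24) in Dis3 lost the call. Ns1 (0.48) and Ns3 (0.44) in Rrp6 also lost it, while Nnp-1 in Dis3 kept it. Of the 12 calls only Nnp-1 in Dis3 was kept both without GFP 1 and without GFP 2; 4 of the 72 comparisons were called without GFP 1, 4 without GFP 2, and 7 without either Rrp40 array.

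**Figure D2:**
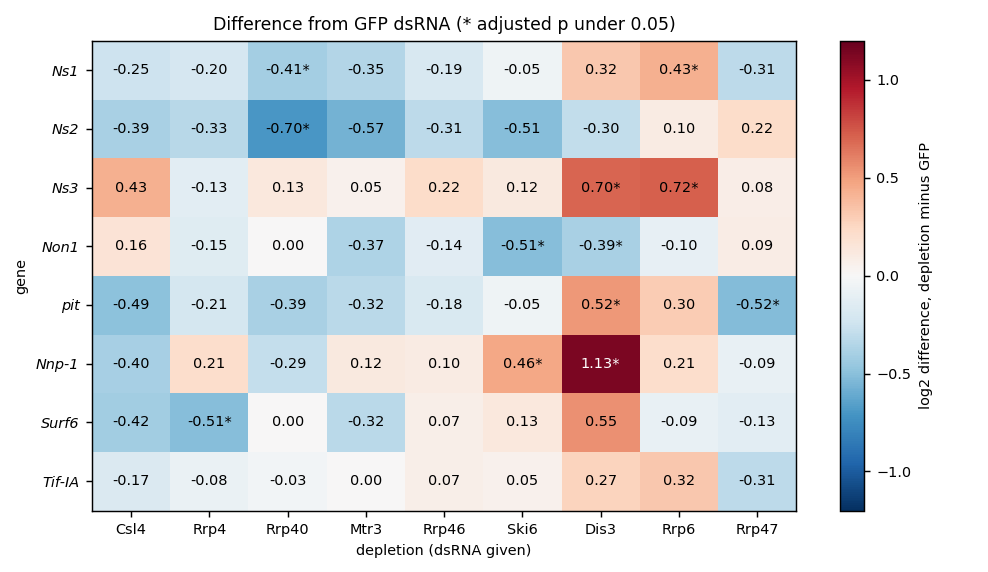
Log2 difference of each depletion minus GFP (colour and printed value) for 8 genes (rows) and 9 depletions (columns); an asterisk marks an adjusted p under 0.05. The Dis3 and Rrp6 columns hold 5 of the 6 values called higher, and the largest is 1.13 for Nnp-1 in Dis3.

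Nnp-1 showed the largest difference. It is the fly homologue of yeast Rrp1, a nucleolar protein needed to process the RNA of the large ribosomal subunit. It read 11.30 and 11.04 on the Dis3 arrays, against 9.94 and 10.14 on the GFP arrays. Both Dis3 arrays lay above every other array. The difference of 1.13 ± 0.16 is 2.18-fold (adjusted p = 7e-05, higher in 2 of 2 arrays), and the call was kept under all 39 alternatives of processing and array choice, with values of 0.92 to 1.26. Of the 20 calls for these genes over all comparisons of group means, it was the only one with no change under any alternative. The cap arrays read 9.74 and 9.54 in Csl4, 10.23, 10.30, 10.30 and 10.20 in Rrp4, and 9.72 and 9.79 in Rrp40. The ring arrays read 9.93 and 10.39 in Mtr3, 10.10 and 10.17 in Rrp46, and 10.65 and 10.35 in Ski6. Thus Csl4 and Rrp40 held the lowest values, below both GFP arrays, at -0.40 ± 0.16 (adjusted p = 0.086) and -0.29 ± 0.16 (adjusted p = 0.21). Ski6 rose by 0.46 ± 0.16 (adjusted p = 0.044, 2 of 2 arrays). That call was lost without GFP 1 (0.36) or Ski6 1 (0.31), and, with the difference at 0.46, without any 1 array of Rrp4, Rrp40, Rrp46 or Rrp47 (adjusted p = 0.055 to 0.057). The Rrp6 arrays read 10.16 and 10.34 and the Rrp47 arrays 9.90 and 10.01, neither group called. By mean, the order of groups was Dis3, Ski6, Rrp4, Rrp6, Mtr3, Rrp46, GFP, Rrp47, Rrp40 and Csl4. Arrays of neighbouring groups did not overlap between Dis3 and Ski6, Ski6 and Rrp4, or Rrp47 and Rrp40.

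The 4 GTPases followed no common course. Ns1 is the homologue of nucleostemin, a nucleolar GTPase that helps build the large subunit. Its arrays read 10.32 and 10.27 in Dis3, 10.33 and 10.47 in Rrp6 and 9.63 and 9.68 in Rrp47, against 9.96 and 9.99 in GFP. Among cap subunits the arrays read 9.81 and 9.64 in Csl4, 9.86, 9.81, 9.76 and 9.66 in Rrp4, and 9.57 and 9.55 in Rrp40. Among ring subunits the arrays read 9.63 and 9.62 in Mtr3, 9.80 and 9.76 in Rrp46, and 10.07 and 9.77 in Ski6. All 4 Dis3 and Rrp6 arrays lay above every other array. Ns1 rose in Rrp6 by 0.43 ± 0.12 (1.35-fold, adjusted p = 0.04, 2 of 2 arrays). The difference in Dis3 was 0.32 ± 0.12 (adjusted p = 0.077) and was not called. The Rrp6 call was lost without either GFP array (0.41 and 0.44) or Rrp6 2 (0.36), and, with the difference at 0.43, without any 1 array of Mtr3, Rrp40, Rrp46 or Rrp47 or without Rrp4 2 or 3 (adjusted p = 0.051 to 0.057). Ns1 fell in Rrp40 by 0.41 (SE 0.12, adjusted p = 0.027, lower in 2 of 2 arrays), and lost the call without either GFP array (-0.42 and -0.39) or either Rrp40 array (-0.42 and -0.40). Mtr3, at -0.35 ± 0.12 (adjusted p = 0.062), was called without either Rrp6 array (adjusted p = 0.048). The groups ranked Rrp6, Dis3, GFP, Ski6, Rrp46, Rrp4, Csl4, Rrp47, Mtr3 and Rrp40, and neighbours were free of overlap between Rrp6 and Dis3, Dis3 and GFP, or Mtr3 and Rrp40.

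Ns2 is the homologue of yeast Nog2, a GTPase of the nuclear large subunit precursor. It read 6.51 and 6.92 in Dis3, 7.05 and 7.18 in Rrp6 and 7.43 and 7.04 in Rrp47, against 7.11 and 6.92 in GFP. Cap subunit arrays held 6.58 and 6.68 in Csl4, 6.50, 6.86, 6.86 and 6.53 in Rrp4, and 6.21 and 6.42 in Rrp40. Ring subunit arrays held 6.75 and 6.14 in Mtr3, 6.83 and 6.59 in Rrp46, and 6.52 and 6.50 in Ski6. No core array reached the lower GFP array. In Rrp40 Ns2 fell by 0.70 (SE 0.23, 1.63-fold lower, adjusted p = 0.042, 2 of 2 arrays). This call was lost without GFP 1 (-0.61), GFP 2 (-0.79), Rrp40 1 (-0.60) or Rrp40 2 (-0.80), and, at -0.70, without any 1 array of Rrp46 or Ski6 (adjusted p = 0.05 to 0.054). Mtr3 had -0.57 ± 0.23 (adjusted p = 0.099) and was called without Mtr3 1 (-0.88, adjusted p = 0.036). The order of means was Rrp47, Rrp6, GFP, Dis3, Rrp46, Rrp4, Csl4, Ski6, Mtr3 and Rrp40, with no overlap of arrays between GFP and Dis3, or Csl4 and Ski6.

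Ns3 is the homologue of yeast Lsg1, the cytoplasmic GTPase that releases the export adaptor Nmd3 from the large subunit. It read 8.97 and 9.16 in Dis3, 9.10 and 9.08 in Rrp6 and 8.45 and 8.44 in Rrp47, against 8.21 and 8.53 in GFP. The Dis3 and Rrp6 arrays were the 4 highest of the 22. Ns3 rose by 0.70 ± 0.19 in Dis3 (1.62-fold, adjusted p = 0.014, 2 of 2 arrays). In Rrp6 it rose by 0.72 ± 0.19 (1.65-fold, adjusted p = 0.025, 2 of 2 arrays). Both calls were lost without GFP 1, the lower control (0.54 and 0.56), the Dis3 call also without Dis3 2 (0.60) and the Rrp6 call without Rrp6 2 (0.73). The cap arrays read 8.64 and 8.95 in Csl4, 8.23, 8.28, 8.05 and 8.41 in Rrp4, and 8.40 and 8.61 in Rrp40. The ring arrays read 8.59 and 8.25 in Mtr3, 8.47 and 8.71 in Rrp46, and 8.72 and 8.27 in Ski6. Csl4 came next at 0.43 ± 0.19 (adjusted p = 0.13), both arrays above both GFP arrays, and no other group was called. Groups ran in the order Rrp6, Dis3, Csl4, Rrp46, Rrp40, Ski6, Rrp47, Mtr3, GFP and Rrp4, and only Dis3 and Csl4 were neighbours without overlap.

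Non1 is the homologue of yeast Nog1, a GTPase that stays on the large subunit precursor from the nucleolus to the cytoplasm. Where it was called, it was lower. The values were 12.68 and 13.08 in Dis3, 13.17 and 13.16 in Rrp6 and 13.34 and 13.37 in Rrp47, against 13.14 and 13.40 in GFP. Among ring subunits the arrays read 13.00 and 12.81 in Mtr3, 13.12 and 13.13 in Rrp46, and 12.72 and 12.78 in Ski6. Dis3 1 and both Ski6 arrays were the 3 lowest of the 22, while Dis3 2 lay above both Mtr3 arrays. Non1 fell in Ski6 by 0.51 (SE 0.13, 1.43-fold lower, adjusted p = 0.0064, 2 of 2 arrays). The call was lost without GFP 2 (-0.39) or Ski6 1 (-0.48). In Dis3 Non1 fell by 0.39 (SE 0.13, 1.31-fold lower, adjusted p = 0.036, 2 of 2 arrays). The difference was -0.19 without Dis3 1 and -0.26 without GFP 2, and neither was called. Mtr3 stood at -0.37 ± 0.13 (adjusted p = 0.05) and was not called, but was called without GFP 1 (-0.49) and, at -0.37, without either Dis3 array, either Rrp6 array, or Rrp4 2 or 3 (adjusted p = 0.021 to 0.049). Among cap subunits the arrays read 13.38 and 13.47 in Csl4, 13.21, 13.27, 12.90 and 13.09 in Rrp4, and 13.31 and 13.23 in Rrp40. Csl4 2 was the highest array, and no cap group was called. The order was Csl4, Rrp47, Rrp40, GFP, Rrp6, Rrp46, Rrp4, Mtr3, Dis3 and Ski6, with neighbours apart between Csl4 and Rrp47, Rrp47 and Rrp40, or Rrp6 and Rrp46.

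The helicase gene pit (pitchoune) encodes a DEAD-box protein, the homologue of yeast Has1, and is known in flies as a target of Myc. It read 10.40 and 10.08 in Dis3, 9.85 and 10.18 in Rrp6 and 9.24 and 9.14 in Rrp47, against 9.70 and 9.73 in GFP. Cap subunit arrays held 9.47 and 8.98 in Csl4, 9.57, 9.54, 9.45 and 9.47 in Rrp4, and 9.25 and 9.40 in Rrp40. Ring subunit arrays held 9.34 and 9.45 in Mtr3, 9.53 and 9.55 in Rrp46, and 9.80 and 9.52 in Ski6. Dis3 and Rrp6 held the 4 highest arrays, and both Rrp47 arrays lay among the 4 lowest. In Dis3 pit rose by 0.52 ± 0.17 (1.44-fold, adjusted p = 0.034, 2 of 2 arrays). The call was lost without GFP 1 (0.51), GFP 2 (0.54) or Dis3 1 (0.37). In Rrp47 it fell by 0.52 (SE 0.17, 1.44-fold lower, adjusted p = 0.036, 2 of 2 arrays), a call lost without GFP 1 (-0.54), GFP 2 (-0.51), Rrp47 1 (-0.57) or Rrp47 2 (-0.47). Rrp6, whose protein partner is Rrp47, had 0.30 ± 0.17 (adjusted p = 0.32) and was not called. Csl4, at -0.49 ± 0.17 (adjusted p = 0.052), was called without Csl4 1 (-0.73, adjusted p = 0.0097) and, at -0.49, without any 1 array of Dis3 or Rrp6 (adjusted p = 0.035 to 0.039). Means ordered the groups as Dis3, Rrp6, GFP, Ski6, Rrp46, Rrp4, Mtr3, Rrp40, Csl4 and Rrp47, and neighbours did not overlap between Rrp6 and GFP, or Rrp4 and Mtr3.

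Surf6 is the homologue of yeast Rrp14, a nucleolar protein of ribosome assembly. Its values were 9.08 and 9.20 in Dis3, 8.41 and 8.59 in Rrp6 and 8.46 and 8.47 in Rrp47, against 8.46 and 8.72 in GFP. The cap arrays read 8.32 and 8.03 in Csl4, 8.14, 8.38, 7.80 and 7.98 in Rrp4, and 8.59 and 8.59 in Rrp40. The ring arrays read 8.06 and 8.48 in Mtr3, 8.45 and 8.88 in Rrp46, and 8.90 and 8.54 in Ski6. The Dis3 arrays were the highest 2 of the 22, and Rrp4 arrays were among the lowest. Surf6 fell in Rrp4 by 0.51 (SE 0.18, 1.43-fold lower, adjusted p = 0.049, 4 of 4 arrays). It was lost without GFP 1 (-0.65), GFP 2 (-0.38), Rrp4 1 (-0.54), Rrp4 3 (-0.42) or Rrp4 4 (-0.48), and, at -0.51, without any 1 array of Rrp40, Rrp47 or Ski6 (adjusted p = 0.052 to 0.063). The difference was -0.26 with median centring (adjusted p = 0.37) and -0.38 with trimmed mean scaling (adjusted p = 0.15). With Rrp4 arrays 1 and 2 alone it was -0.33 (adjusted p = 0.29), and it was called in none of these. With Rrp4 arrays 3 and 4 alone, which read 7.80 and 7.98, the call was kept. Signal for the Rrp4 target lay below both GFP arrays on Rrp4 arrays 3 and 4, and on neither of arrays 1 and 2. In Dis3 the difference was 0.55 ± 0.21 (adjusted p = 0.074), not called, with both arrays above both GFP arrays. Group means fell in the order Dis3, Ski6, Rrp46, GFP, Rrp40, Rrp6, Rrp47, Mtr3, Csl4 and Rrp4, and only Dis3 and Ski6 were neighbours whose arrays stood apart.

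Tif-IA is the homologue of yeast Rrn3, the initiation factor that ties RNA polymerase I to growth signals through TOR. It read 11.04 and 10.52 in Dis3, 10.92 and 10.74 in Rrp6 and 10.18 and 10.22 in Rrp47, against 10.43 and 10.60 in GFP. Among cap subunits the arrays read 10.40 and 10.29 in Csl4, 10.45, 10.36, 10.53 and 10.39 in Rrp4, and 10.43 and 10.54 in Rrp40. Among ring subunits the arrays read 10.47 and 10.56 in Mtr3, 10.62 and 10.55 in Rrp46, and 10.56 and 10.57 in Ski6. Rrp6 and Dis3 1 were highest and Rrp47 lowest, but by limma 0 of 9 depletions were called against GFP, with differences of -0.31 to 0.32 and a lowest adjusted p of 0.13. Rrp6 and Rrp47 had an unadjusted p under 0.05 (0.038 and 0.041). In Dis3, 0.27 ± 0.14 became 0.53 and was called without Dis3 2 (adjusted p = 0.012) and was -0.01 without Dis3 1, and Rrp47, at -0.31 ± 0.14, was called without either Dis3 array (adjusted p = 0.047 and 0.046). The order of means was Rrp6, Dis3, Rrp46, Ski6, Mtr3, GFP, Rrp40, Rrp4, Csl4 and Rrp47, and neighbours without overlap were Ski6 and Mtr3, or Csl4 and Rrp47.

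The scaling of the arrays bears on several of these signs. In the intensities as deposited, the trimmed mean was 500 on the 4 Rrp4 arrays and 125.9 to 345.6 on the other 18, and without normalization the median over all tested probe sets moved by 1.58 in Rrp4, 1.02 in Ski6, 0.97 in Mtr3 and 0.59 in Rrp47 (log2, against GFP). On those values 3 of the calls turned sign: Surf6 in Rrp4 was 1.19, Non1 in Ski6 0.20 and pit in Rrp47 0.01, each below the median of all probe sets in that comparison. The values called higher in Dis3 and Rrp6 kept their direction, with medians over all probe sets of -0.19 and -0.17, but 3 of these 5 calls were lost. Ns1 in Rrp6 was 0.20 (adjusted p = 0.52), Ns3 in Rrp6 0.58 (adjusted p = 0.11) and pit in Dis3 0.33 (adjusted p = 0.31), while Nnp-1 (0.92, adjusted p = 0.0047) and Ns3 (0.63, adjusted p = 0.046) in Dis3 were kept. In all, 29 of the 72 comparisons with GFP were called as deposited, 28 higher and 1 lower, and 4 of the 12 calls were kept. Median centring also kept 4 of the 12, with 6 called, 4 higher and 2 lower, and trimmed mean scaling kept 9, with 11 called, 7 higher and 4 lower. With median centring Ns1 in Rrp6 was 0.23 (adjusted p = 0.47), while the other lost calls besides Surf6 in Rrp4, Ns1 and Ns2 in Rrp40, Ns3 in Rrp6, Non1 in Dis3, pit in Rrp47 and Nnp-1 in Ski6, moved by less than 1.5 times. Surf6 in Dis3 was called with median centring (0.78, adjusted p = 0.018) and trimmed mean scaling (0.68, adjusted p = 0.032), as was pit in Csl4 (-0.63, adjusted p = 0.043, and -0.51, adjusted p = 0.042).

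Over all 9 depletions together, no common shift of the 8 genes was found. With limma 0 of 8 were called against GFP, beside 21.9% of all tested probe sets. None of the 8 had an unadjusted p under 0.05, a threshold for which the share over all tested is not given. The differences ran from -0.31 ± 0.17 for Ns2 (adjusted p = 0.22) to 0.26 ± 0.14 for Ns3 (adjusted p = 0.22). The depletions did differ from each other. The F test among the 9 depletion groups, which does not use the GFP arrays, called 8 of 8 genes, beside 57.7% of all tested probe sets. Its adjusted p was 4e-05 for Nnp-1, 0.00026 for Ns1, 0.0008 for pit, 0.0029 for Non1, 0.0049 for Ns3, 0.0051 for Surf6, 0.018 for Tif-IA and 0.035 for Ns2. Leaving out 1 array at a time gave 6 to 8 of 8, the lowest without Rrp47 1, and leaving out all Rrp4 arrays gave 5. The spread of group means between the highest and lowest group was 2.89-fold for Nnp-1, 2.09-fold for Surf6, 2.06-fold for pit, 1.89-fold for Ns2, 1.80-fold for Ns3, 1.79-fold for Ns1, 1.59-fold for Non1 and 1.55-fold for Tif-IA.

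The core groups were then set against Dis3, the catalytic subunit, again without the GFP arrays. Of the 8 genes 5 were lower in the core groups than in Dis3 and 0 were higher, beside 24.8% of all tested probe sets called (12.1% higher and 12.7% lower). The Dis3 arrays are those already set against GFP, so this is not a separate result. For Nnp-1 the core mean was 10.08 and the Dis3 mean 11.17, a difference of -1.09 ± 0.12 (adjusted p = 8.4e-06). For pit the means were 9.44 and 10.24, a difference of -0.80 ± 0.13 (adjusted p = 0.00029). Surf6 had core and Dis3 means of 8.42 and 9.14 (-0.72 ± 0.16, adjusted p = 0.0035). Ns1 had 9.73 and 10.29 (-0.56 ± 0.09, adjusted p = 0.00042), and Ns3 had 8.51 and 9.07 (-0.56 ± 0.14, adjusted p = 0.0096). The GFP means were 10.04 for Nnp-1, 9.71 for pit, 8.59 for Surf6, 9.97 for Ns1 and 8.37 for Ns3. For these 5 genes all 14 core arrays lay below both Dis3 arrays. The share of all tested probe sets with such a separation is not given here, so this only describes the 5 genes. Tif-IA (-0.30 ± 0.11, adjusted p = 0.053), Non1 (0.22 ± 0.10, adjusted p = 0.1) and Ns2 (-0.17 ± 0.18, adjusted p = 0.53) were not called, and their arrays overlapped.

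Dis3 2 decided part of that result. Without it the calls for Ns3 (-0.46, adjusted p = 0.19) and Surf6 (-0.66, adjusted p = 0.079) were lost, while Tif-IA (-0.56, adjusted p = 0.0055) and Non1 (0.42, adjusted p = 0.027) were called. Tif-IA was also called without either Rrp6 array (-0.30, adjusted p = 0.042). The direction of the 5 genes held under median centring and trimmed mean scaling, but with the values as deposited, where the median over all tested probe sets was 0.88, Ns1 and Ns3 turned to 0.28, Surf6 to 0.12 and pit to 0.05, and Nnp-1 was -0.25 and not called. When arrays were weighted by quality in the fit, Ns3 (adjusted p = 0.2) and Surf6 (adjusted p = 0.13) were not called, while Ns1, pit and Nnp-1 were. The signal of the 18S ribosomal RNA controls was 8.79 (log2 over the array median) in Dis3 and 2.72 to 8.39 in the 6 core groups. It was highest in Dis3, Ski6 and Rrp6, at 8.79, 8.39 and 8.38, and the median of the 8 genes against GFP was 0.42, 0.00 and 0.25 in these 3 groups. Its part in the result was not tested.

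Against Rrp6 and Rrp47 together, the core groups were lower for Ns2 and Ns1, 2 of 8 genes, beside 38.9% of all tested probe sets (19.8% lower). Ns2 had a core mean of 6.55, against 7.18 in Rrp6 and Rrp47, with all 14 core arrays below all 4 others (-0.63 ± 0.13, adjusted p = 0.0023). The share of all tested probe sets separated in this way is not given, so the separation only describes Ns2. The difference for Ns2 was -0.02 and not called in the values as deposited. Ns1 had 9.73, against 10.03 (-0.30 ± 0.07, adjusted p = 0.0045), and turned to 0.18 as deposited, where the median of all probe sets was 0.45. With median centring Ns1 was -0.19 (adjusted p = 0.13) and not called, and Ns2 was -0.39 and called (adjusted p = 0.039). For Ns1 the Rrp6 arrays lay above all core arrays and the Rrp47 arrays lay within their range: the Rrp6 arrays read 10.33 and 10.47 and the Rrp47 arrays 9.63 and 9.68. Rrp6 and Rrp47 were not tested against each other. Ns3 (-0.26 ± 0.11, adjusted p = 0.066) was called without Csl4 2 (-0.29), Mtr3 1 (-0.29) or Ski6 1 (-0.30), and Non1 (-0.16 ± 0.07, adjusted p = 0.084) without either Dis3 array (-0.16, adjusted p = 0.043 and 0.044).

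Between the exonucleases, Nnp-1 was higher in Dis3 than in Rrp6 by 0.92 ± 0.16 (1.89-fold, adjusted p = 0.00087, 2 of 2 arrays). It was the only 1 of 8 genes called, beside 12.1% of all tested probe sets (6.18% higher). Surf6 had 0.63 ± 0.21 (adjusted p = 0.058) and was not called, but was called with median centring (1.03, adjusted p = 0.0046), trimmed mean scaling (0.73, adjusted p = 0.037) and a filter at the 75th percentile (0.63, adjusted p = 0.045). Of the other genes that stood high in both groups none was called, with -0.03 ± 0.19 for Ns3, -0.11 ± 0.12 for Ns1 and 0.22 ± 0.17 for pit. The value for pit varied with the arrays and the scaling: it was 0.55 and called without the Csl4, Dis3 and Rrp6 arrays numbered 2 (adjusted p = 0.029), 0.55 with median centring (adjusted p = 0.072) and -0.10 without those numbered 1 (adjusted p = 0.74). Non1 was -0.28 ± 0.13 (adjusted p = 0.16), and was called without Dis3 2 (-0.48, adjusted p = 0.025). The call for Nnp-1 was lost when arrays were weighted by their quality in the fit (adjusted p = 0.11).

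Averaged over the 8 genes, each centred on its own mean over arrays, the level was 0.40 in Dis3 (arrays 0.40 and 0.41) and 0.29 in Rrp6 (0.24 and 0.34). The other depletions lay between -0.17 in Mtr3 and 0.01 in Ski6 and Rrp46, and GFP at 0.05 (-0.01 and 0.12). The average hides Non1 and Ns2, which were not high in Dis3.

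Over the 22 arrays the 8 genes varied together only in part. Of 28 pairs, 20 had a Pearson r above 0 and 10 above 0.5, with a median of 0.39. The highest was 0.91 between Ns1 and pit, which was 0.88 over the 20 arrays without Dis3 and 0.72 after the group means were subtracted. Next came pit with Nnp-1 at 0.81 and pit with Tif-IA at 0.79, which within groups were 0.70 and 0.35. The lowest was -0.71 between Non1 and Nnp-1, which was -0.73 without Dis3 and -0.39 within groups. These are descriptions over arrays that share groups and a normalization, and no p is given.

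**Figure D3:**
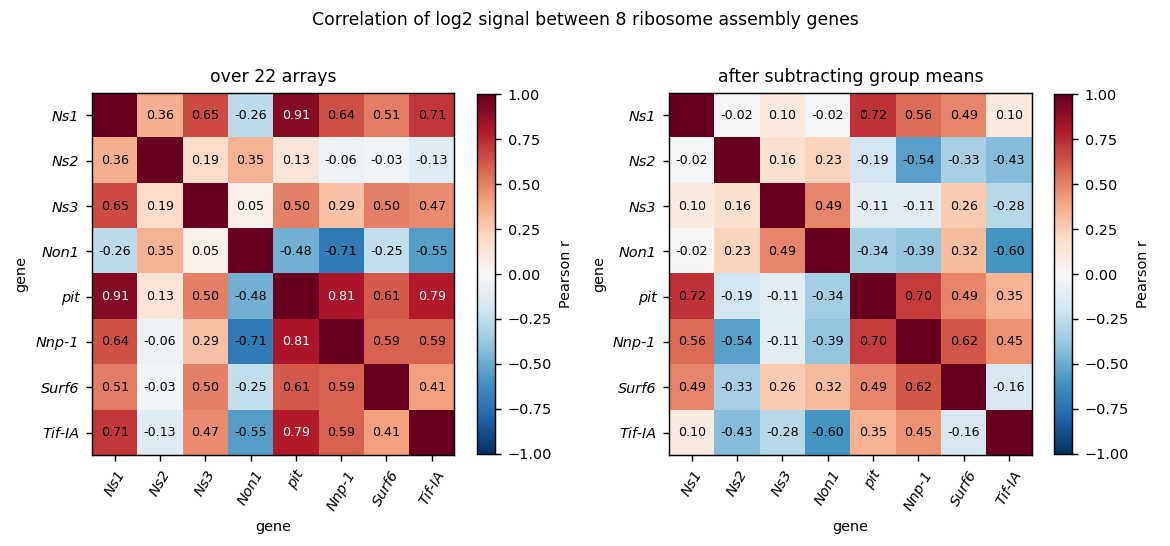
Pearson r of log2 signal between 8 ribosome assembly genes (rows and columns, colour and printed value), over 22 arrays at the left and after subtracting each group's mean at the right. Ns1, pit and Nnp-1 form a block of positive values in both panels (0.64 to 0.91 over all arrays), and the row of Non1 is mostly negative.

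By the same measure, the gene outside the 8 whose signal was most like each one over the 22 arrays was ras for Ns1 (r = 0.95), CG10903 for pit (0.92), eIF3h for Non1 (0.88), pum for Tif-IA (0.88), Nxt1 for Ns3 (0.85), Vps15 for Ns2 (0.83), l(2)k09848 for Surf6 (0.83) and CG18178 for Nnp-1 (0.82). For the average of the 8 genes the closest were CG11563 (0.94), CG10903 (0.94), l(3)72Dn (0.93), l(2)k09848 (0.93) and RIOK2 (0.92). The best match among all tested probe sets has a high r by choice, so these values only name neighbours.

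Other genes of the same pathway were taken from 5 lists of 59 genes in all, of which 54 were tested. The lists were drawn up with earlier results of these data known, so their shares are descriptions and no independent test. In the Dis3 arrays 26 of the 54 rose and 4 fell, 55.6% called beside 21.2% of all tested probe sets, with a median difference of 0.54, beside -0.01 over all tested. By list, 7 of 10 other helicases and ATPases rose and 1 fell (median 0.92), 8 of 14 small subunit factors rose and 1 fell (0.57), 8 of 17 large subunit factors rose and 1 fell (0.47), 2 of 8 genes of RNA polymerase I rose and 0 fell (0.30), and 1 of 5 genes in the list of other GTPases, which holds the EFL1 partner Sbds too, rose and 1 fell (0.58). In the values as deposited 16 of the 54 rose, and without GFP 1 the number was 12. With arrays weighted by quality, 8 of the 54 list genes rose. Shares of all tested probe sets under these alternatives are not given here. In the main fit the 8 genes described here had 3 higher and 1 lower, with a median of 0.42.

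The named genes of each list were its 2 highest and 2 lowest over all depletions against GFP. That choice used the Dis3 arrays and the same GFP arrays, so the values and p below are in part set by it. In Dis3, Non3, the homologue of yeast Rpf2, rose by 1.38 ± 0.17 (adjusted p = 3e-05) and CG6724, the homologue of WDR12, by 1.36 ± 0.20 (adjusted p = 0.00011). Both act on the large subunit precursor, as does Ip259, the homologue of yeast Nsa2, which fell by 0.89 (SE 0.11, adjusted p = 2.8e-05). Among small subunit factors l(2)k09022, the homologue of HEATR1, rose by 1.40 ± 0.24 (adjusted p = 0.00049) and Mat89Ba, the homologue of NOL6, by 1.02 ± 0.29 (adjusted p = 0.018), while LTV1, a factor of late small subunit assembly, fell by 0.93 (SE 0.20, adjusted p = 0.0032). CG11920 was -0.04 ± 0.16 and not called. Of the helicases and ATPases CG13185, the homologue of midasin, rose by 1.50 ± 0.48 (adjusted p = 0.033) and pths, the homologue of DDX47, by 1.02 ± 0.23 (adjusted p = 0.0041), Ddx56 fell by 0.36 (SE 0.10, adjusted p = 0.014), and Dbp73D was 0.38 ± 0.26 and not called. Among other GTPases CG7728, the homologue of BMS1, rose by 0.94 ± 0.21 (adjusted p = 0.004) and Ns4, the fourth nucleostemin-like gene, fell by 0.71 (SE 0.17, adjusted p = 0.0072). Tsr1 (0.67 ± 0.25, adjusted p = 0.063) and Sbds (0.10 ± 0.15) were not called. Of RNA polymerase I genes Polr1A, its largest subunit, rose by 0.80 ± 0.18 (adjusted p = 0.0039), and TAF1B (0.37 ± 0.15), Polr1E (0.21 ± 0.26) and Polr1F (0.14 ± 0.16) were not called, nor was RpL24-like of the large subunit list (-0.20 ± 0.21).

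**Figure D4:**
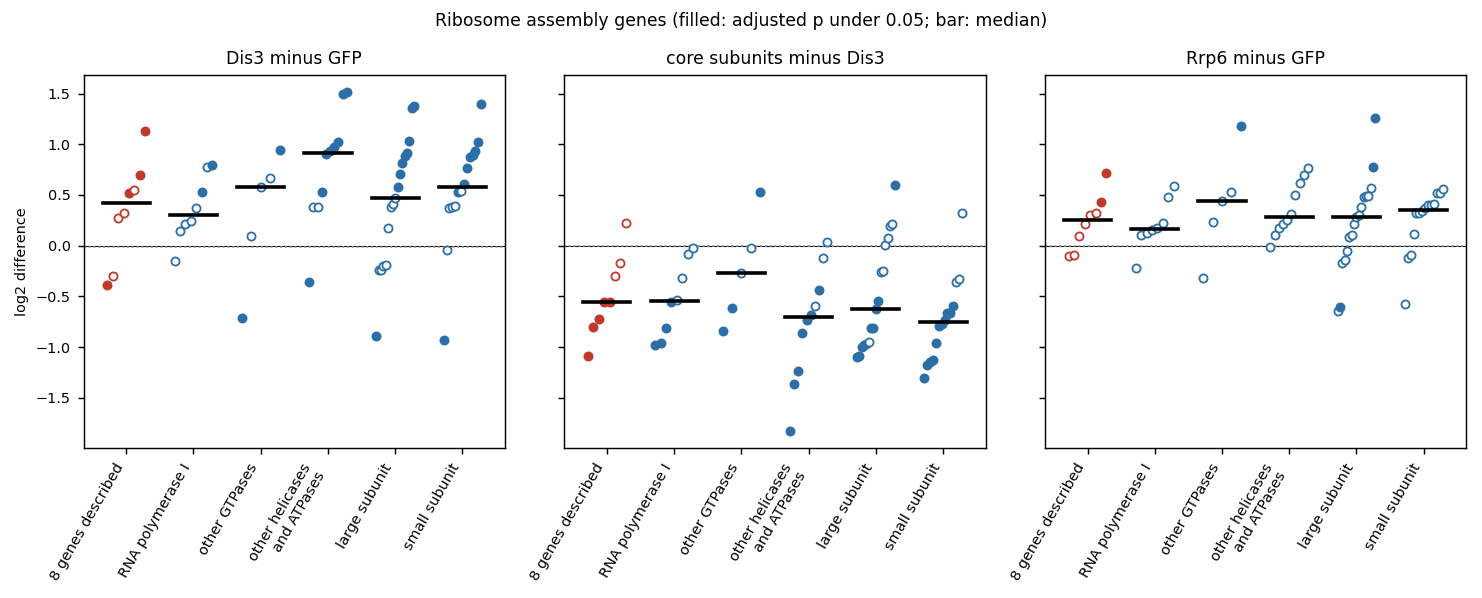
Log2 differences (vertical axis) for the 8 genes described (red) and 5 lists of other assembly genes (blue), in 3 comparisons: Dis3 minus GFP, core minus Dis3 and Rrp6 minus GFP. Each point is a gene, filled where the adjusted p is under 0.05, bars are list medians and the dotted line the median over all tested probe sets; medians lie between 0.30 and 0.92 for Dis3 minus GFP.

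Of the 54 list genes 33 were lower in the core groups than in Dis3 and 2 were higher, 64.8% called beside 24.8% of all tested, with a median of -0.66. In the values as deposited, where the median over all tested probe sets was 0.88, only 2 were lower. The same Dis3 arrays serve here as against GFP. Against GFP the median of the 54 was 0.54 in Dis3 and -0.20 to 0.00 in the core groups. The 2 higher in the core were Ns4 (0.53 ± 0.13, adjusted p = 0.0078) and Ip259 (0.60 ± 0.09, adjusted p = 0.0001). By list, 11 of 14 small subunit factors were lower in the core than in Dis3, 9 of 17 large subunit factors, 7 of 10 helicases and ATPases, 4 of 8 polymerase I genes and 2 of 5 other GTPases.

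In Rrp6, 3 of the 54 rose and 1 fell, 7.41% called beside 8.82% of all tested, with a median of 0.30. The 3 were eIF6 (1.26 ± 0.16, adjusted p = 8.5e-05), CG33158 (1.18 ± 0.21, adjusted p = 0.0015) and CG6724 (0.78 ± 0.20, adjusted p = 0.021), of which eIF6 and CG33158 were named after their values were seen. The protein eIF6 keeps the large subunit from joining the small one until the GTPase EFL1, of which CG33158 is the fly homologue, removes it. Ip259 fell by 0.60 (SE 0.11, adjusted p = 0.0027). The other depletions had fewer genes called than Dis3, with shares from well below to slightly above those over all tested probe sets. In Rrp4 3 rose and 12 fell (27.8% called beside 23.8% of all tested), in Ski6 5 and 8 (24.1% beside 22.7%), in Mtr3 0 and 9 (16.7% beside 18.9%) and in Rrp47 2 and 8 (18.5% beside 20.5%). In Rrp40 1 rose and 5 fell (11.1% beside 20.3%), in Rrp46 3 and 4 (13.0% beside 19.8%) and in Csl4 2 and 3 (9.26% beside 18.6%). Over all depletions against GFP 3 rose and 6 fell (16.7% called beside 21.9% of all tested, median -0.02). They include genes that were named for this same difference. Of these CG6724 (0.49 ± 0.15), Non3 (0.44 ± 0.13) and l(2)k09022 (0.76 ± 0.18) rose. LTV1 (-0.67 ± 0.15), CG11920 (-0.57 ± 0.12), Polr1F (-0.50 ± 0.12), Ip259 (-0.39 ± 0.08) and Ddx56 (-0.25 ± 0.07) fell.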

How the data were processed

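Total RNA of Drosophila S2 cells was measured on 22 Affymetrix arrays in 10 dsRNA groups. The authors deposited 1 linear intensity per probe set and array, made with GCOS per the submitters' processing notes, with no version given there. No label or header states the scaling or a genome build. Probe sets were named from the platform annotation with current symbols (13647 with 1 symbol, 402 with several and 4720 with none), and the 183 Affymetrix controls of 18952 were left out.

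From these intensities, arrays were quantile normalized, values were floored at the 10th percentile (a signal of 3.234) and taken as log2, and the 9385 probe sets whose mean log2 signal reached the median of 4.67 were tested. A model of 10 group means was fitted with limma 3.58.1 in R 4.3.3 (lmFit, eBayes with an intensity trend, 12 residual degrees of freedom), so that all groups share 1 estimate of spread per probe set, with Benjamini-Hochberg adjustment within each comparison at 0.05. Class comparisons weighed each group equally. The number of arrays limits the precision. The fit was run on simulated data with normal noise and 1 spread per probe set for all groups. That run cannot show what happens to p-values where some groups vary more than others.

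The genes, lists and comparisons were chosen with earlier results of these data known. Genes named by rule were all 9 members, the 2 highest and 2 lowest genes of each list over all depletions, and the closest probe sets by correlation (1 for each gene and 5 for their average). The list genes eIF6 and CG33158 were named outside this rule, after their values were seen. The alternatives tried concern the scaling, floor, filter, model, array choice and replicate block. No sequences were used here.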

Additional observations from a re-analysis of the deposited data

Results flagged for a closer look

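The 8 genes differed among the 9 depletions by the F test of limma, with an adjusted p of 4e-05 for Nnp-1, 0.00026 for Ns1, 0.0008 for pit, 0.0029 for Non1, 0.0049 for Ns3, 0.0051 for Surf6, 0.018 for Tif-IA and 0.035 for Ns2. Between classes of depletion, tested within the same model, core minus Dis3 was -1.09 for Nnp-1, -0.80 for pit, -0.72 for Surf6 and -0.56 for both Ns1 and Ns3. The core minus the mean of Rrp6 and Rrp47 was -0.63 for Ns2 and -0.30 for Ns1. Dis3 minus Rrp6 was 0.92 for Nnp-1. Each was picked out because depletions of parts of 1 complex differed for the same gene, and each test is of that difference. No single array of the Rrp4 group, the only group of 4, was flagged as apart from the others for any of the 8 genes. A search for a single array cannot see a split into pairs. Arrays 3 and 4 both read below arrays 1 and 2 for Surf6, Ns1, Non1 and pit, and for the Rrp4 target itself. They did not for Ns2, Ns3, Nnp-1 and Tif-IA. The cause of that split was not tested.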

How the results depend on the processing

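The count of 12 calls against GFP (6 higher and 6 lower) became 6 with median centring (4 and 2), 29 in the values as deposited (28 and 1), 7 without the filter, 4 with array weights, 7 with Rrp4 arrays 1 and 2 alone, 5 without the Rrp4 group, 20 without the Csl4, Dis3 and Rrp6 arrays numbered 1, 2 with each depletion fitted with GFP alone, and 4 to 15 when 1 array was left out. The 0 calls over all depletions became 4 as deposited (all higher), and stayed at 0 to 0 when 1 array was left out. For core against Dis3 the 5 calls, all lower, became 3 as deposited, all higher and none of them among the 5, and 3 of the 5 with array weights (5 to 6 with 1 array left out), for core against Rrp6 and Rrp47 the 2, both lower, became 5 as deposited, all higher and neither of the 2 among them, and 1 with median centring (Ns2; 2 to 3), and for Dis3 against Rrp6 the 1 became 2 with median centring, trimmed mean scaling or a filter at the 75th percentile, 3 without the Csl4, Dis3 and Rrp6 arrays numbered 2 and 0 with array weights (1 to 2). The 8 genes that differed among depletions became 5 without the Rrp4 group (6 to 8). Of the assembly list genes, in alternatives added after the data were seen, the 26 higher in Dis3 became 16 as deposited and 8 with array weights (12 to 28), and the 33 lower in the core than in Dis3 became 2 as deposited and 21 with the filter at the 75th percentile (28 to 34), which tests fewer genes.

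Replicate numbers did not pair the arrays in most groups: of 45 pairs of groups, same-numbered arrays correlated above 0.1 in 4 and below -0.1 in 6. The values ran from -0.35 to 0.41, so a few groups varied in part alike or oppositely by replicate number. The cause of that was not tested. With a replicate block, 7 comparisons with GFP were called. Of 104 comparisons of a gene, 62 had the other sign in at least 1 alternative, 45 of them in the values as deposited, where the arrays' scale is not removed, and 30 in others, among them 12 with median centring. Where a value was called before or after the sign turned, 29 cases, it was in the values as deposited. Against GFP these were, in Rrp4, 1.40 for Ns1, 1.41 for Ns2, 1.59 for Ns3, 1.28 for Non1, 1.40 for pit, 1.19 for Surf6 and 1.48 for Tif-IA, in Mtr3, 0.60 for Ns1, 0.57 for Ns2, 0.65 for pit and 0.78 for Surf6, in Ski6, 0.90 for Ns1, 0.74 for Ns2, 0.20 for Non1 and 0.93 for pit, in Rrp47, 0.01 for pit, and over all depletions, 0.33 for Ns1. Core against Dis3 was 0.28 for Ns1, 0.79 for Ns2, 0.28 for Ns3, 0.05 for pit, 0.12 for Surf6 and 0.57 for Tif-IA, and core against Rrp6 and Rrp47 was 0.18 for Ns1, 0.30 for Ns3, 0.34 for pit, 0.45 for Nnp-1, 0.50 for Surf6 and 0.43 for Tif-IA. The cause of the other changes was not tested. With 2 arrays in most groups, and GFP among the more variable, calls near the threshold depend on single arrays. Counts of calls under the alternatives are given without the share of all tested probe sets, so they only describe the genes counted.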
